A study of Homo sapiens with 4 samples.

Results

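The 10 genes described here carry cytokine signals through the JAK kinases and STAT5 or hold such signals back: the receptor gene *IL7R*, the transcription factor genes *STAT5A* and *STAT5B*, the inhibitor genes *CISH*, *SOCS1*, *SOCS2* and *SOCS3*, the kinase genes *PIM1* and *PIM2*, and the repressor gene *BCL6*. They were selected on their place in this pathway with their processed signals and log2 ratios on these same arrays already known, so every value below is a description and none was tested. They are 10 of the 17721 genes named on the array, and 15 of its 41000 probes measure them, each probe printed as a single spot.

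Nalm-6 is an established human pre-B cell line, and the arrays measured its total RNA, labelled with Cy3 and hybridized in a single color, without oxidative stress. Arp5 and Arp8, encoded by *ACTR5* and *ACTR8*, are actin-related subunits of the INO80 chromatin remodeling complex. The question was which transcripts depend on these subunits. There were 4 arrays on 1 slide, 1 for each genotype: wild-type cells, Arp5 KO cells, Arp8 KO cells and cells labelled Arp8 overexpression. In the KO cells the *ARP5* or *ARP8* locus had been disrupted by homologous recombination. The overexpression is described as coming from a tetracycline-regulated (Tet-Off) system put into the Arp8 KO cells, and the labels do not say whether a tetracycline was present in any culture. With 1 array per genotype there was no replicate check, and the number of arrays limits the precision of every value.

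Each array held 43376 spots, of which 31188 were well above background, the scanner software's mark for a reliable signal, in wild-type, 31420 in Arp5 KO, 30394 in Arp8 KO and 30803 on the array labelled Arp8 overexpression. No spot was saturated. Signals are given in the scanner's arbitrary units after background subtraction, and log2 ratios were taken after each signal was divided by its array's 75th percentile, which was 1980, 1950, 2004 and 2012 units in the same order. A probe was called higher or lower when its ratio passed 2-fold (a log2 ratio of 1) and the brighter array was well above background. Where the dimmer signal was not well above background and lay under the array's lowest signal that was, it was raised to that signal. The ratio is then a bound. A signal that missed the mark but lay above that lowest signal kept its own value, and its ratio is marked as a bound all the same. Spots of probes printed at least 5 times gave a technical SD of the log2 ratio for each such probe. Its median was 0.031 for signals of 1000 units or more, 0.048 from 100 to 1000 units, 0.106 from 20 to 100 units and 0.477 under 20 units. The highest SD of any such probe was 0.087, 0.119, 0.426 and 1.185 in the same order. The technical SD used below is the median, so a noisier probe could vary by more. It covers spots on these arrays and not cultures. Probes differ in how strongly they bind, so levels are compared between arrays and not between genes, and the brighter probe is only a name for the probe of a gene with the larger signal.

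The cell type on the labels was set against marker genes. All 17 pre-B cell marker genes compared, among them *VPREB1*, *IGLL1* and *PAX5*, were well above background on each array. Their summed signal was 802721 units in wild-type, 746551 in Arp5 KO, 729239 in Arp8 KO and 738227 on the array labelled Arp8 overexpression.

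In B-cell precursors, interleukin 7 binds a receptor made of the chain encoded by *IL7R* and the common gamma chain encoded by *IL2RG*, and the kinases JAK1 and JAK3 on these chains phosphorylate STAT5, which then enters the nucleus and binds DNA at paired TTC and GAA triplets. STAT5 switches on genes for its own inhibitors, *CISH* and the SOCS genes, and for the survival kinases of the PIM family, so the pathway limits itself. BCL6, a repressor needed by pre-B cells as they leave the interleukin 7 stage and by germinal center B cells, can occupy many of the same sites as STAT5, and STAT5 in turn can repress *BCL6*.

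The disrupted genes were examined first. The *ACTR5* probe gave 1909 units in wild-type, 65.3 in Arp5 KO, 1849 in Arp8 KO and 2088 on the array labelled Arp8 overexpression. It was low in Arp5 KO cells alone, by 28.8-fold against wild-type. For *ACTR8*, probe A_23_P80694 gave 1092, 993, 785 and 679 units in the same order of arrays, and probe A_24_P131697 gave 2149, 2233, 1654 and 1857 units. On both probes the array labelled Arp8 overexpression lay below wild-type, with log2 ratios of -0.71 and -0.23, and Arp8 KO cells had log2 ratios of -0.49 and -0.40 to wild-type, 1.41-fold and 1.32-fold lower and not called. The probes disagree on Arp8 KO cells against the array labelled Arp8 overexpression, with log2 ratios of 0.21 (technical SD 0.048) and -0.16 (0.031), neither called. *ACTR8* was therefore not higher than in wild-type cells on the array that carries the overexpression label, and no statement below takes its cells to hold more Arp8. Nor do these signals show a loss of the transcript in the cells labelled Arp8 KO like that of *ACTR5* in Arp5 KO cells, and the name Arp8 KO is used below as the label gives it. Whether these probes lie in the disrupted stretch of the gene or match the transgene was not examined.

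Of the 15 member probes, 13 were well above background on all 4 arrays, and the other 2 are those of *SOCS3*. In Arp5 KO cells against wild-type, 2 member probes were called higher and 2 lower, where 1.17% of 29911 probes tested were called higher and 1.14% lower. In Arp8 KO cells against wild-type, 3 were higher and 2 lower, where 1.48% of 29393 probes were higher and 2.07% lower. On the array labelled Arp8 overexpression, where *ACTR8* was not higher, no member probe was called higher and 1 was lower, where 1.48% of 29645 probes were higher and 2.76% lower. Arp8 KO cells set against that array had 3 member probes higher and 1 lower of 14 tested, where 0.938% of 29201 probes were higher and 0.925% lower. Since the genes were picked with these ratios known, nothing is read from their counts. The median log2 ratio over the member probes was 0.18, 0.21, 0.06 and 0.13 in the 4 comparisons in this order, and over all probes tested it was 0.04, 0.01, 0.01 and 0.01. The comparisons to wild-type share 1 wild-type array, and each is given by its own values.

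**Figure D1:**
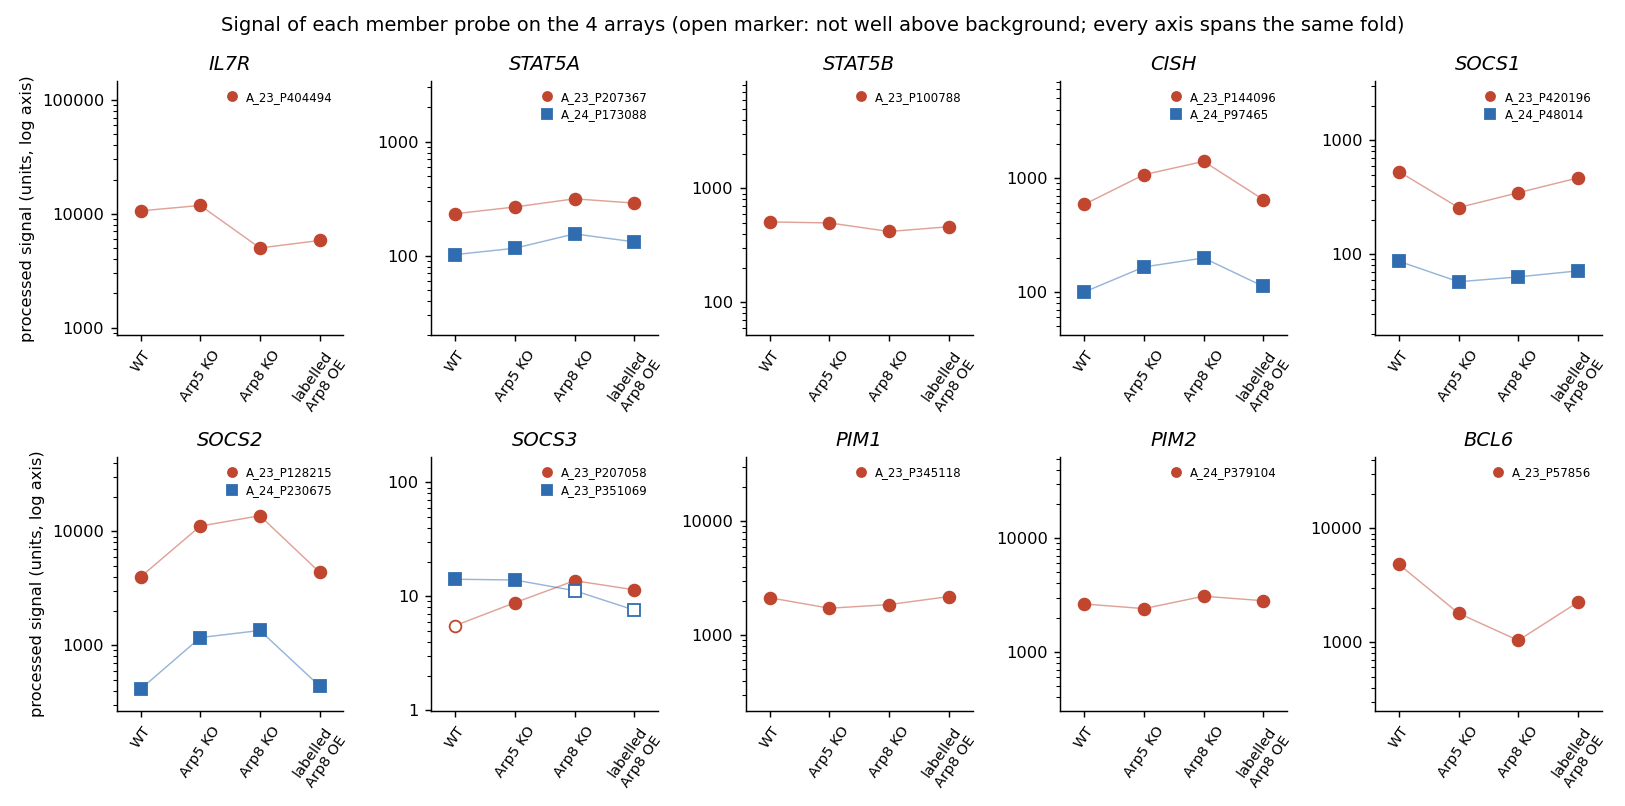
Processed signal (units, log axis spanning the same fold in every panel) of the 15 member probes on the 4 arrays, 1 panel per gene and 1 marker shape per probe; open markers were not well above background, and the lines only join the values of a probe. *SOCS2* and *CISH* are high in both KO lines (13705 units for *SOCS2* in Arp8 KO cells against 3977 in wild-type cells), *BCL6* is highest in wild-type cells (4822 units), and *PIM1* and *PIM2* stay nearly level. Against wild-type, *CISH* was not called in Arp5 KO cells (log2 ratios of 0.89 and 0.74), and in Arp8 KO cells only its brighter probe was called (1.23 and 0.97).

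*IL7R*, the chain that gives the interleukin 7 receptor its specificity, gave 10613 units in wild-type, 11842 in Arp5 KO, 5013 in Arp8 KO and 5832 on the array labelled Arp8 overexpression. Wild-type and Arp5 KO cells were the high pair, and the low pair was made up of Arp8 KO and the array labelled Arp8 overexpression. The fall in Arp8 KO cells was 2.14-fold against wild-type (log2 ratio of -1.10) and was called. The array labelled Arp8 overexpression was 1.85-fold below wild-type (log2 ratio of -0.89), short of the threshold, and its *ACTR8* signal was not above wild-type. Arp5 KO cells differed from wild-type by a log2 ratio of 0.18. From the highest array to the lowest, the gaps were 0.18, 0.89 and 0.21, each above 2 times the technical SD of 0.031. In RNA from a whole culture, fewer cells that express a gene and less of its RNA in each cell cannot be told apart.

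The partner chain and the ligands were looked at for their role. *IL2RG*, the common gamma chain, gave 247 units in wild-type, 116 in Arp5 KO, 31.2 in Arp8 KO and 37.3 on the array labelled Arp8 overexpression. It was highest in wild-type cells, 2.10-fold lower in Arp5 KO, 8.01-fold in Arp8 KO and 6.72-fold on the array labelled Arp8 overexpression, all 3 of them called. *IL7* and *TSLP*, which encode the cytokines that bind receptors containing the *IL7R* chain, were not well above background on any array, with no signal above 2.03 units. *CRLF2*, the chain that pairs with *IL7R* for TSLP, gave 14.7, 13.7, 14.6 and 16.5 units in the order wild-type, Arp5 KO, Arp8 KO and labelled Arp8 overexpression.

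*STAT5A* and *STAT5B* encode the closely related STAT5 proteins. Probe A_23_P207367 of *STAT5A* gave 233 units in wild-type, 267 in Arp5 KO, 315 in Arp8 KO and 289 on the array labelled Arp8 overexpression, and probe A_24_P173088 gave 102, 116, 155 and 132 units. Both probes put Arp8 KO cells highest and wild-type cells lowest, with mean log2 ratios to wild-type of 0.22, 0.51 and 0.32 for Arp5 KO, Arp8 KO and labelled Arp8 overexpression. On the brighter probe the step between the array labelled Arp8 overexpression and Arp5 KO cells, 0.07, was under 2 times the technical SD of 0.048. *STAT5B* gave 507 units in wild-type, 497 in Arp5 KO, 418 in Arp8 KO and 460 on the array labelled Arp8 overexpression. Here wild-type and Arp5 KO cells were highest and differed by only 0.01, and Arp8 KO cells were lowest, with a log2 ratio of -0.30 to wild-type. In Arp8 KO cells the 2 STAT5 genes thus lay on opposite sides of wild-type, and no probe of either was called in any comparison.

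The promoters of *CISH* and *BCL6* are printed because both genes were called in Arp8 KO cells, *CISH* higher and *BCL6* lower, and both promoters hold several copies of the letters that STAT5 binds. They were taken from RefSeq sequence on the GRCh38.p14 build, 250 bases before to 50 after the start of transcription, and 9 of the 10 genes matched, all but *SOCS2*, with 13 promoters. The motif searched was TTCNNNGAA, which reads alike on both strands. The *CISH* window is chr3:50611725-50612024 and the *BCL6* window, its upstream promoter, is chr3:187745419-187745718, both on the minus strand and written 5′ to 3′ with the motif in capitals.
CISH: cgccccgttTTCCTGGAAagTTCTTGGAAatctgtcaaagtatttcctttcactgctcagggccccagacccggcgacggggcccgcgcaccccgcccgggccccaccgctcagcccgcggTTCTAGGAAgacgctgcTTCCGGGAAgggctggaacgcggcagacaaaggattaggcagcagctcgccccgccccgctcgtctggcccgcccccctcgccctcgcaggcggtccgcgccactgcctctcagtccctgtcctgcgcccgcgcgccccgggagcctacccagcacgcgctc
BCL6: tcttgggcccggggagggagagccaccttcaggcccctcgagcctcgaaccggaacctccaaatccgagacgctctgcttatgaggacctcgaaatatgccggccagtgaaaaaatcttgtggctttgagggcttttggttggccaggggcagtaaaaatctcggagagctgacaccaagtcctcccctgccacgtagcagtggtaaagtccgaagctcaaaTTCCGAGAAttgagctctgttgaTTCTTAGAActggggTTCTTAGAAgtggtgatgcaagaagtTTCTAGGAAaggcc

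The *CISH* window held 4 matches, at -241, -230, -129 and -112 from the start, and the *BCL6* window held 4, at -28, -5, 10 and 36. None of the other 11 promoters of the 9 matched genes held the motif. Over all 35116 promoters of this length, 2689 (7.66%) held TTCNNNGAA at least once and 7 (0.0199%) held it 4 or more times. The same triplets with 4 bases between them were in 1 member promoter, of *STAT5A*, and in 6.44% of all promoters, and TGANTCA, the AP-1 motif, was in the other *BCL6* promoter and in 7.71% of all promoters, both strands being searched for each. The *CISH* window was 70.3% G and C and the *BCL6* window 53.0%. The *CISH* and *BCL6* windows were printed partly for their matches, so nothing is read from how rare such windows are. A match describes letters and not binding.

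*CISH* encodes an SH2 protein that docks on activated cytokine receptors and blocks STAT5. Probe A_23_P144096 gave 588 units in wild-type, 1072 in Arp5 KO, 1401 in Arp8 KO and 647 on the array labelled Arp8 overexpression. Both KO lines were high, and wild-type cells and the array labelled Arp8 overexpression were low. Arp8 KO cells were called higher, by 2.35-fold against wild-type and by 2.18-fold against the array labelled Arp8 overexpression (log2 ratios of 1.23 and 1.12), and Arp5 KO cells, at 1.85-fold against wild-type (0.89), were not. With normexp background correction the ratio of Arp8 KO cells to the array labelled Arp8 overexpression came to 0.99 and was not called. Probe A_24_P97465 was dimmer, at 100, 166, 199 and 112 units in the same order of arrays. It ordered the arrays alike and stayed just under the threshold, which it passed in Arp8 KO cells with median scaling or quantile normalization, with log2 ratios to wild-type of 0.74 for Arp5 KO, 0.97 for Arp8 KO and 0.13 for the array labelled Arp8 overexpression. On neither probe did a step between neighbouring arrays fall under 2 times the technical SD, and the smallest, from the array labelled Arp8 overexpression down to wild-type, was 0.11 on the brighter probe.

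*SOCS2* encodes an inhibitor best known for damping growth hormone signals and forms, with *CISH*, a pair within the SOCS family. Probe A_23_P128215 gave 3977 units in wild-type, 11112 in Arp5 KO, 13705 in Arp8 KO and 4372 on the array labelled Arp8 overexpression, and probe A_24_P230675 gave 412, 1167, 1348 and 438 units. Both probes were high in the KO lines, and wild-type cells and the array labelled Arp8 overexpression were low on both. Against wild-type, Arp5 KO cells were 2.84-fold and 2.88-fold higher on the 2 probes and Arp8 KO cells 3.41-fold and 3.23-fold higher. The array labelled Arp8 overexpression was 1.08-fold and 1.05-fold above wild-type, and Arp8 KO cells were 3.15-fold and 3.09-fold above that array, whose *ACTR8* signal was no higher than that of wild-type cells. Among all probes tested, the *SOCS2* probes held places 93 and 86 from the highest of 29911 in Arp5 KO cells and places 93 and 107 of 29393 in Arp8 KO cells. In Arp8 KO cells against the array labelled Arp8 overexpression they held places 30 and 34 of 29201. The step from Arp5 KO down to the array labelled Arp8 overexpression was 1.39 and 1.46 in log2, while Arp8 KO cells exceeded Arp5 KO cells by 0.26 and 0.17. On the dimmer probe the array labelled Arp8 overexpression and wild-type differed by 0.06, under 2 times the technical SD of 0.048.

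*SOCS1*, whose product binds JAK kinases directly and blocks their activity, ran the other way. Probe A_23_P420196 gave 531 units in wild-type, 257 in Arp5 KO, 347 in Arp8 KO and 468 on the array labelled Arp8 overexpression, and probe A_24_P48014 gave 86.8, 57.4, 63.3 and 71.5 units. Wild-type cells were highest on both probes and Arp5 KO cells lowest. The brighter probe was 2.03-fold lower in Arp5 KO cells than in wild-type cells (log2 ratio of -1.02), just past the threshold, and the dimmer probe had a log2 ratio of -0.57, a difference of 0.45 between probes. With normexp background correction the brighter probe came to -0.83 and was not called. In Arp8 KO cells the log2 ratios to wild-type were -0.63 and -0.47, and the array labelled Arp8 overexpression had -0.20 and -0.30. Below wild-type, the dimmer probe did not separate neighbouring arrays beyond 2 times its technical SD of 0.106, the steps being 0.17 and 0.10.

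*SOCS3*, which blocks signalling through gp130 and related receptors, was near the limit of measurement. Probe A_23_P207058 gave 5.53 units in wild-type cells, not well above background, and 8.77 units in Arp5 KO, 13.7 in Arp8 KO and 11.4 for the array labelled Arp8 overexpression. Probe A_23_P351069 gave 14.1 and 13.9 units in wild-type and Arp5 KO cells, and fell short of the background mark at 11.2 units in Arp8 KO and 7.57 for the array labelled Arp8 overexpression. The first probe was at least 1.75-fold higher in Arp8 KO cells than in wild-type cells and the other put wild-type cells above Arp8 KO cells, so the probes gave opposite directions, at signals where the technical SD is 0.477. No direction is given for *SOCS3*.

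The PIM kinases, which promote survival and are classic products of STAT5 activity, varied little. *PIM1* gave 2131 units in wild-type, 1724 in Arp5 KO, 1856 in Arp8 KO and 2181 for the array labelled Arp8 overexpression, a range of 0.29 in log2. Its log2 ratios to wild-type were -0.28 in Arp5 KO cells and -0.22 in Arp8 KO cells, and wild-type cells differed from the array labelled Arp8 overexpression by only 0.01. *PIM2* gave 2642, 2408, 3093 and 2824 units in the same order of arrays, a range of 0.32. It was highest in Arp8 KO cells, at a log2 ratio of 0.21 to wild-type, and lowest in Arp5 KO cells, at -0.11. Neither gene was called in any comparison, while *SOCS2* and *CISH*, listed with them among STAT5 targets, had ranges of 1.77 and 1.23 on their brighter probes.

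*BCL6* had the widest range of the members, 2.23 in log2. Its probe gave 4822 units in wild-type, 1794 in Arp5 KO, 1037 in Arp8 KO and 2246 for the array labelled Arp8 overexpression. Wild-type cells stood well above the other 3 arrays, and Arp8 KO cells were lowest. The fall against wild-type was 2.65-fold for Arp5 KO, 4.70-fold for Arp8 KO and 2.18-fold for the array labelled Arp8 overexpression, all called. Arp8 KO cells were also called lower than the array labelled Arp8 overexpression, by 2.16-fold, a comparison in which neither *ACTR8* probe was called and the 2 had opposite signs. From the lowest, *BCL6* held place 154 of 29911 in Arp5 KO cells, place 81 of 29393 in Arp8 KO cells and place 593 of 29645 on the array labelled Arp8 overexpression. The steps down the order wild-type, the array labelled Arp8 overexpression, Arp5 KO and Arp8 KO were 1.13, 0.28 and 0.83, each above 2 times the technical SD of 0.031. The upstream *BCL6* promoter is printed beside that of *CISH*, with the same number of motif matches. Unlike *SOCS2* and *CISH*, *BCL6* was called on the array labelled Arp8 overexpression as well, at a log2 ratio of -1.13, where *SOCS2* had 0.11 and 0.06 on its probes.

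**Figure D2:**
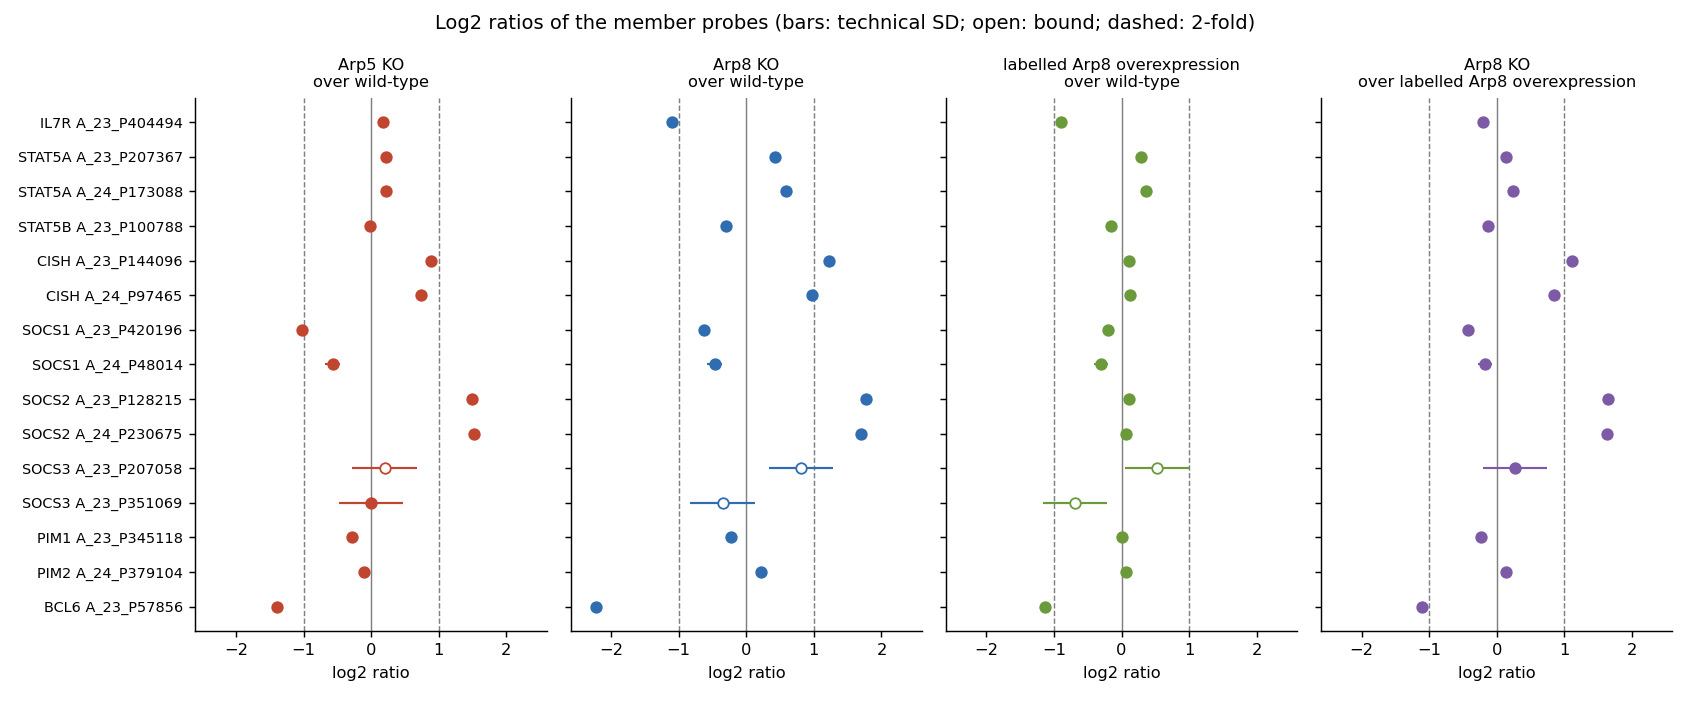
Log2 ratios of the 15 member probes in the 4 comparisons, 1 panel per comparison, with the technical SD as bars, bounds as open markers and the 2-fold threshold dashed. The *SOCS2* probes (2.84-fold and 2.88-fold higher in Arp5 KO, 3.41-fold and 3.23-fold in Arp8 KO) and *BCL6* (2.65-fold and 4.70-fold lower) lie farthest out in the KO lines, on opposite sides, and most other probes lie inside the threshold.

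**Figure D3:**
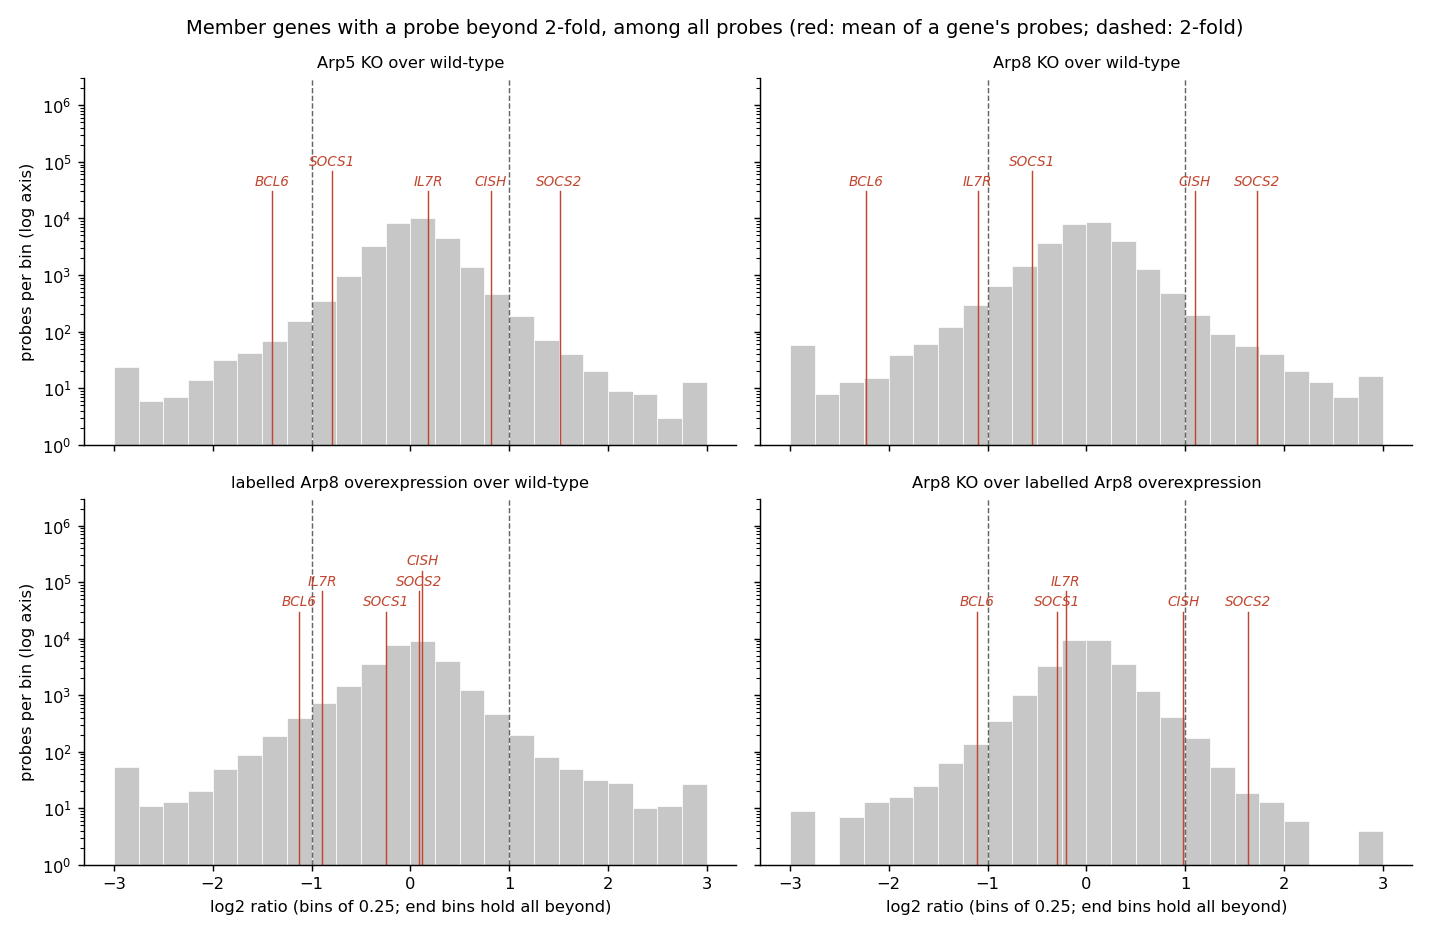
Number of probes (log axis) at each log2 ratio over all probes tested, 1 panel per comparison, the end bins holding all values beyond. Red lines mark the mean of the probes of each member gene that has a probe beyond 2-fold in any comparison, and dashed lines mark 2-fold. The bulk of the probes lies near 0 (medians of 0.04, 0.01, 0.01 and 0.01), with *SOCS2* in the upper tail against wild-type in both KO lines and *BCL6* in the lower tail of all 4 panels.

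The wider pathway was described with lists that hold 161 genes, 157 of them with a probe, and 188 of their 246 probes were well above background on at least 1 array. In Arp5 KO cells against wild-type, 9 of 183 pathway probes tested were called higher (4.92%, and 1.17% of all probes) and 4 lower (2.19%, and 1.14% of all probes). In Arp8 KO cells, 13 of 184 were higher (7.07%, and 1.48% of all probes) and 6 lower (3.26%, and 2.07%). On the array labelled Arp8 overexpression, 8 of 184 were higher (4.35%, and 1.48% of all probes) and 8 lower (4.35%, and 2.76%). Arp8 KO cells against that array had 8 of 181 higher (4.42%, and 0.938% of all probes) and 6 lower (3.31%, and 0.925%). These lists too were written with earlier results known, so nothing is read from the shares. The members are among these genes, each probe counts once in these totals, and a gene that stands in several lists counts in each of them below. The shares of all probes given here stand beside those list counts too, from which nothing is read either.

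**Figure D4:**
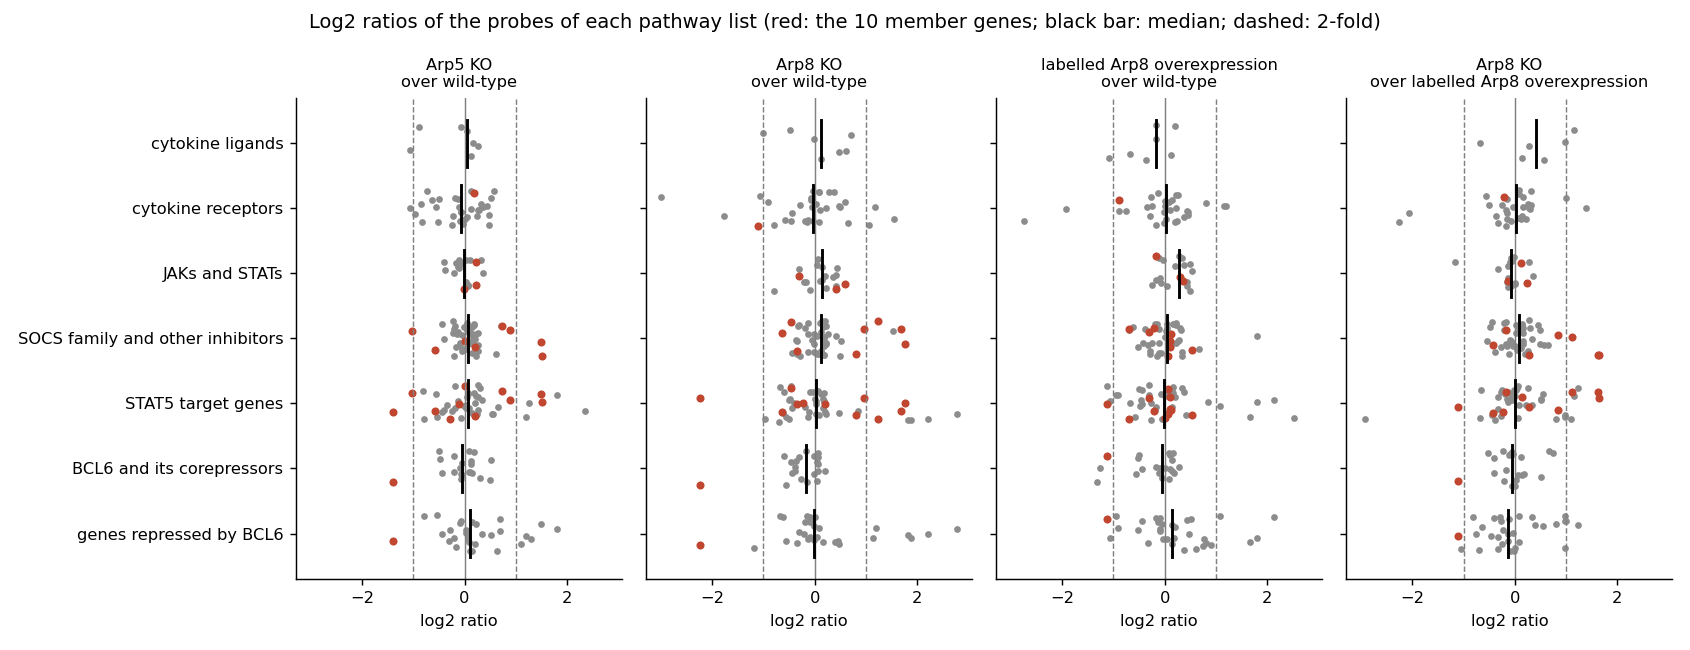
Log2 ratio of each pathway probe by list in the 4 comparisons, each point a probe (red for the 10 member genes), each black bar the median of its list and the dashed lines 2-fold. The medians lie close to 0 in the comparisons to wild-type (-0.17 to 0.28), while single probes such as *IL2RG* (8.01-fold lower in Arp8 KO cells) lie far from them.

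Among cytokine ligands, 7 probes could be compared in Arp5 KO cells, with none higher, 1 lower and a median of 0.04. In Arp8 KO cells none of 7 was called (median 0.12), and on the array labelled Arp8 overexpression 1 of 7 was lower (median -0.16). Arp8 KO cells against that array had 1 of 6 higher (median 0.43). The lower probe was 1 of *LIF*, near background at 18.6 units in wild-type cells and less elsewhere, and the other *LIF* probe gave 20.1, 10.7, 31.2 and 15.9 units. *OSM*, a STAT5 target as well as a ligand, gave 335 units in wild-type, 398 in Arp5 KO, 470 in Arp8 KO and 212 on the array labelled Arp8 overexpression, where it was lowest.

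Cytokine receptors had 0 probes higher and 1 lower of 33 in Arp5 KO cells (median -0.07), 3 higher and 4 lower of 33 in Arp8 KO cells (median -0.04), and 2 higher and 2 lower of 31 on the array labelled Arp8 overexpression (median 0.02). Arp8 KO cells against that array had 2 higher and 2 lower of 30 (median 0.03). Beside *IL7R* and *IL2RG*, the interleukin 12 receptor chain *IL12RB2* gave 189, 202, 56.2 and 50.5 units in the order wild-type, Arp5 KO, Arp8 KO and labelled Arp8 overexpression. It was low on the same pair of arrays as *IL7R*, with log2 ratios of -1.77 and -1.93 to wild-type. *IL3RA*, the interleukin 3 receptor alpha chain, split that pair, with 487, 268, 236 and 1133 units on its brighter probe, high on the array labelled Arp8 overexpression and low in both KO lines. Against wild-type its brighter and dimmer probes had log2 ratios of -0.84 and -0.83 in Arp5 KO cells, not called. In Arp8 KO cells they had -1.06 and -0.90, and only the brighter probe was called. *IL20RB* gave 208, 304, 441 and 367 units, a log2 ratio of 1.07 in Arp8 KO cells against wild-type. *IL22RA1* was well above background only in Arp8 KO cells, at 23.2 and 17.8 units on its probes. Apart from *IL20RB*, it gave the higher calls in Arp8 KO cells against wild-type, and all of those against the array labelled Arp8 overexpression. The *IL22RA1* ratios are bounds, at signals where the technical SD is 0.477.

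The JAK and STAT genes had no call among 19 probes in any comparison to wild-type (medians of -0.01, 0.15 and 0.28 for Arp5 KO, Arp8 KO and labelled Arp8 overexpression) and 1 lower in Arp8 KO cells against the array labelled Arp8 overexpression (median -0.08). That probe, of *STAT4*, gave 66.4, 68.5, 38.7 and 87.6 units in the order wild-type, Arp5 KO, Arp8 KO and labelled Arp8 overexpression. The receptor kinases, given for their role, were *JAK1*, with 1684, 1537, 1511 and 1681 units on its brighter probe, and *JAK3*, with 8953, 11371, 12317 and 12855 units on probe A_24_P59667. That *JAK3* probe was lowest in wild-type cells, with log2 ratios of 0.37, 0.44 and 0.50. Its other probes gave 202, 186, 212 and 211 units, lowest in Arp5 KO, and 80.6, 80.7, 95.9 and 103 units, so they differ on whether Arp5 KO lay above wild-type. The log2 ratios of *JAK1* to wild-type lay between -0.17 and -0.03 on its brighter probe and between -0.21 and 0.03 on the other.

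The SOCS family and other inhibitors had 2 probes higher and 1 lower of 48 in Arp5 KO cells (median 0.08), 4 higher and 0 lower in Arp8 KO cells (median 0.12), and 1 higher and 0 lower on the array labelled Arp8 overexpression (median 0.05). Arp8 KO cells against that array had 3 higher and 0 lower of 47 (median 0.09). Apart from *SOCS1*, *SOCS2* and *CISH*, the only gene called was *PTPRC*, which encodes the CD45 phosphatase, with 69.2, 104, 203 and 246 units. It was high in Arp8 KO and for the array labelled Arp8 overexpression, with log2 ratios to wild-type of 1.54 and 1.81. The other SOCS genes, *SOCS4*, *SOCS5*, *SOCS6* and *SOCS7*, had no call.

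STAT5 target genes had 6 probes higher and 2 lower of 47 in Arp5 KO cells (median 0.07), 7 higher and 1 lower of 48 in Arp8 KO cells (median 0.02), and 5 higher and 3 lower of 48 on the array labelled Arp8 overexpression (median -0.01). Arp8 KO cells against that array had 6 higher and 2 lower of 47 (median 0.00). Beside *SOCS2* and *CISH*, the cyclin gene *CCND2* gave 22.1, 50.4, 155 and 79.0 units on its brightest probe, lowest in wild-type cells, with log2 ratios of 1.21, 2.79 and 1.81. Its probe A_24_P270235 had 0.23, 1.89 and 1.08, so the call in Arp5 KO cells rests on 1 probe. The phosphatase gene *DUSP5* was at 7.72 units in wild-type, below the mark for a reliable signal, and gave 26.6, 27.7 and 34.6 units on the other arrays, at least 3.48-fold higher in Arp5 KO cells. *SGK1*, a kinase gene, gave 203, 476, 234 and 267 units and was high in Arp5 KO cells alone, with a log2 ratio of 1.25. *KLF2* gave 643, 3226, 750 and 530 units on probe A_23_P119196, high in Arp5 KO cells, but 77.0, 90.8, 140 and 65.3 units on probe A_24_P151305, so its probes disagreed.

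*MYC* was lower on the array labelled Arp8 overexpression than on the others on both probes, with 251, 316, 284 and 122 units on A_24_P38363 and 67279, 69410, 71982 and 36255 units on A_23_P215956, and only the former was called there (-1.07 and -0.91 in log2). *ID1*, an inhibitor of helix-loop-helix factors, was lowest on that array too, with 630, 905, 421 and 295 units. *TNFRSF13B*, a B-cell receptor for BAFF and APRIL, was highest on it, at 72.4 units against 12.3 in wild-type cells, and did not pass the background mark in either KO line. In all of these, *ACTR8* was not higher on the array labelled Arp8 overexpression than in wild-type or Arp5 KO cells, and its 2 probes disagreed against Arp8 KO cells.

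BCL6 and its corepressors had 21 probes, of which 0 were called higher in any comparison. *BCL6* was the only gene called lower in Arp5 KO cells (median -0.04), in Arp8 KO cells (median -0.17) and in Arp8 KO cells against the array labelled Arp8 overexpression (median -0.05). On that array against wild-type, 3 probes were lower (median -0.05), those of *BCL6* and both of its relative *BCL6B*. The brighter *BCL6B* probe gave 732 units in wild-type, 1019 in Arp5 KO, 501 in Arp8 KO and 298 on the array labelled Arp8 overexpression, so that, unlike *BCL6*, it was highest in Arp5 KO cells.

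Genes known to be repressed by BCL6 had 5 probes higher and 1 lower of 29 in Arp5 KO cells (median 0.11), 6 higher and 2 lower of 30 in Arp8 KO cells (median -0.02), and 4 higher and 2 lower of 32 on the array labelled Arp8 overexpression (median 0.14). Arp8 KO cells against that array had 1 higher and 2 lower of 32 (median -0.13). *BCL6*, which represses itself, is in this list and gave a lower call in each comparison. *CCND2* and *DUSP5*, counted among the STAT5 target genes above as well, gave all the higher calls on the array labelled Arp8 overexpression against wild-type. They were also among the higher calls in both KO lines against wild-type. No probe of these genes gave more than 22.1 units in wild-type cells. The cell-cycle inhibitor gene *CDKN1A* gave 12259, 9791, 28557 and 14446 units on its brighter probe and was high in Arp8 KO cells, with log2 ratios to wild-type above the threshold on both of its probes. *ID2* was highest in Arp5 KO cells, with 1753, 4251, 2341 and 3131 units on probe A_23_P143143, and so was *PRDM1*, the plasma cell factor gene, with 44.2, 94.1, 62.4 and 63.8 units. *CD69*, an activation marker, was lowest in Arp8 KO cells, with 35.2, 55.7, 15.7 and 32.5 units.

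The genes nearest in pattern to *SOCS2* and *BCL6* were found by Euclidean distance over the 3 log2 ratios to wild-type, from 4 arrays, among 19272 probes that carry 1 gene name and passed the background mark on all arrays. Nearest to *SOCS2*, whose mean ratios were 1.51, 1.73 and 0.09, were *PGAP1* and *ATP7B* at a distance of 0.61, *BMP8B* and *NEK3* at 0.71 and *LINC-PINT* at 0.76. The *ATP7B* probe had log2 ratios of 2.12, 1.70 and 0.01, and the *PGAP1* probe 1.34, 1.41 and 0.58. The other 2 *PGAP1* probes had ratios between -0.25 and 0.14, so that gene's place rests on 1 probe. The other *BMP8B* probes had 0.22, 0.26 and 0.28 and 0.80, 0.99 and -0.37, and those of *NEK3* had 1.32, 1.87 and 0.84 and 1.43, 1.99 and 0.91. Nearest to *BCL6*, at -1.40, -2.23 and -1.13, were *PALM2AKAP2* and *C5* at 0.27, *CD96* at 0.65, *H2BC21* at 0.69 and *GUCY1B1* at 0.74. The *CD96* probe had log2 ratios of -0.97, -1.79 and -0.91, and its other probes had -0.88, -1.60 and -0.81 and -0.91, -1.56 and -0.75. The other *PALM2AKAP2* probe lay near 0, at -0.01, 0.08 and 0.26, and the other *H2BC21* probes had -1.06, -0.86 and -0.47 and 0.54, -0.21 and -1.23. With normexp background correction 2 of the 5 genes nearest to *SOCS2* stayed among the nearest 5, and 0 of those nearest to *BCL6*.

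Markers of other cell types were compared on the same arrays. Of 8 myeloid marker genes, 4 were well above background on the wild-type array and each KO array and 5 on the array labelled Arp8 overexpression, and *ELANE*, *MPO* and *S100A9* were above background on none. The summed signal of the list was 1109 units in wild-type, 1498 in Arp5 KO, 4429 in Arp8 KO and 2807 on the array labelled Arp8 overexpression. This sum was higher on the last 2 of these arrays, on which *IL7R* was low. Most of this sum was signal of the *CD33* probes, with 587, 854, 2792 and 1703 units on A_23_P331748 and 317, 445, 1338 and 795 units on A_24_P301655. *LYZ* gave 55.4, 46.3, 143 and 140 units and *CD14* 119, 124, 123 and 110 units. The list had no call in Arp5 KO cells (median 0.08) or in Arp8 KO cells against the array labelled Arp8 overexpression (median 0.10), 3 of 5 probes higher in Arp8 KO cells (median 1.35) and 5 of 6 higher on the array labelled Arp8 overexpression (median 1.24). Among the latter, *CSF1R* was near background, at 11.1 units in wild-type cells and 25.3 on that array. *S100A8* was well above background on that array alone, at 16.1 units, so its 2.05-fold ratio is a bound. The part of the myeloid marker genes in the ratios of the pathway genes was not tested.

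The pre-B markers had no probe of 25 called higher, and 1 lower in Arp5 KO cells (*CD9*), in Arp8 KO cells (*IKZF3*) and in Arp8 KO cells against the array labelled Arp8 overexpression (*CD38*), with medians of -0.09, -0.26 and -0.03. On the array labelled Arp8 overexpression against wild-type none was called (median -0.18). Of 9 T and NK cell marker genes 6 were well above background on each array, with *CD3D*, *CD3G* and *GNLY* above background on none, and summed signals of 5863, 6641, 5006 and 7112 units in the order wild-type, Arp5 KO, Arp8 KO and labelled Arp8 overexpression. None of their 7 probes was called in any of the 4 comparisons (medians of 0.11, -0.21, -0.02 and -0.11). Most of each summed T and NK signal was that of *CD4*, with 5261, 5912, 4516 and 6575 units. Of 6 erythroid and megakaryocyte marker genes only *ITGA2B* was well above background, with no call and medians of 0.01, 0.20, -0.33 and 0.53.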

How the data were processed

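The authors deposited scanner files in which, per the file headers, the processed signal, the median signal and the local background are intensity values in arbitrary units from Agilent Feature Extraction 10.5.1.1, and other columns are 0 or 1 marks for spots well above background, outlying or saturated. The authors also deposited a value table of intensity, which equals the processed signal times 1 factor per array (0.8472, 0.8378, 0.8247 and 0.8073 for wild-type, Arp5 KO, Arp8 KO and the array labelled Arp8 overexpression), and how the factors were set is not stated. Processed signals were divided by the array's 75th percentile, outlier spots were left out and spots of a probe were averaged. The array design names build hg18. Gene names came from a RefSeq gene table on GRCh38.p14, used for names only, which matched 26222 of 41000 probes (64.0%).

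Members and lists were chosen with earlier results of these data known. The lists were cytokine ligands, cytokine receptors, JAKs and STATs, SOCS family and other inhibitors, STAT5 target genes, BCL6 and its corepressors, genes repressed by BCL6, and markers of pre-B, T and NK, myeloid, and erythroid and megakaryocyte cells. Genes named from the pathway lists were all members, those with a probe beyond 2-fold in any comparison, and the 5 nearest in pattern to SOCS2 and to BCL6. Receptor partners, kinases and ligands named for their role (CRLF2, IL7, TSLP, JAK1 and JAK3), the SOCS genes without a call and the marker genes named singly fall outside this rule and were chosen after their values were seen.

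There were 11 alternative settings. In 1 of them, normexp background correction with an offset of 50 was run on the median signal, because the files hold no mean signal column, and was followed by quantile normalization. Tools were Python 3.11.15, numpy 2.4.6, pandas 2.3.3, matplotlib 3.10.9, limma 3.58.1 and R 4.3.3.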

Additional observations from a re-analysis of the deposited data

Results flagged for a closer look

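2 member genes had opposite directions in the KO lines against the same wild-type array. *PIM2* had a log2 ratio of -0.11 in Arp5 KO cells and 0.21 in Arp8 KO cells. *IL7R* had a log2 ratio of 0.18 in Arp5 KO cells and -1.10 in Arp8 KO cells. With 1 array per genotype, neither difference was tested.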

How the results depend on the processing

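With 1 array for each genotype, no paired analysis was possible. No called member ratio changed direction under any setting. Of 59 member log2 ratios, those that stayed within 1 technical SD of the value reported were 59 with no scaling and with outlier spots kept, 54 with the 75th percentile over probes well above background, 51 with quantile normalization, 49 in the authors' table, 37 with median scaling, 23 with normexp and 56 with dim signals not raised, and 54 of 54 when both arrays had to be well above background. Over the settings, *BCL6* ranged from -1.45 to -1.40 in Arp5 KO cells and from -2.26 to -2.20 in Arp8 KO cells, and the brighter *SOCS2* probe from 1.75 to 1.80 in Arp8 KO cells. Uncalled values near 0 changed sign, *STAT5B* in Arp5 KO cells (-0.05 to 0.01) and *PIM1* on the array labelled Arp8 overexpression (-0.10 to 0.06). Of the 5 nearest genes, 4 stayed for *SOCS2* and 4 for *BCL6* with quantile normalization, and 3 and 5 when nearness was the largest single difference. The dimmer *CISH* probe passed 2-fold in Arp8 KO cells with median scaling and with quantile normalization.

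In the authors' table, 13 pathway probes were higher in Arp8 KO cells against the array labelled Arp8 overexpression, where 8 were before, with 6 lower in both, so that 68.4% of calls were higher in place of 57.1%. Over all probes this comparison went from 274 higher and 270 lower to 303 and 253, or from 50.4% of calls higher to 54.5%. With the 75th percentile over probes well above background, 11 pathway probes were higher and 6 lower there, beside 301 and 258 of all probes. Leaving out normexp and the other thresholds, pathway counts ran from 8 to 11 higher and 3 to 5 lower in Arp5 KO cells (288 to 515 and 249 to 443 over all probes), from 10 to 14 and 6 to 9 in Arp8 KO cells (358 to 519 and 457 to 849), from 7 to 11 and 7 to 9 on the array labelled Arp8 overexpression (361 to 568 and 679 to 1040), and from 6 to 13 and 5 to 9 in Arp8 KO cells against it (231 to 365 and 227 to 416). With normexp, 1 member probe was lower in Arp5 KO cells (*SOCS1* came to -0.83), 2 were higher in Arp8 KO cells against the array labelled Arp8 overexpression where 3 were before (*CISH* came to 0.99), and pathway counts were 6 higher and 1 lower in Arp5 KO cells, 6 and 4 in Arp8 KO, 2 higher and 4 lower on the array labelled Arp8 overexpression, and 4 and 4 in Arp8 KO cells against that array. Normexp gave fewer calls over all probes too, 80 higher and 98 lower (351 and 342 before), 121 and 214 (436 and 609), 135 and 217 (439 and 819), and 64 and 85 (274 and 270) in the same order of comparisons. With dim signals not raised, 1 member probe, of *SOCS3*, was also higher in Arp8 KO (1.29), which made 4, and against wild-type it was the 1 higher on the array labelled Arp8 overexpression (1.02). At 1.5-fold, member probes were 4 higher and 2 lower in Arp5 KO, 6 and 3 in Arp8 KO, 0 and 3 for the array labelled Arp8 overexpression, and 4 and 1 in Arp8 KO cells against it. Pathway counts at 1.5-fold were 17 higher and 12 lower in Arp5 KO, 21 and 17 in Arp8 KO, 16 and 17 for the array labelled Arp8 overexpression, and 18 and 13 in Arp8 KO cells against it. Of all probes, 5.01% were higher and 3.88% lower at this threshold in Arp5 KO, 5.36% and 6.92% in Arp8 KO, 5.33% and 7.94% for the array labelled Arp8 overexpression, and 4.43% and 4.02% in Arp8 KO against it. At 3-fold, member probes were 0 higher and 0 lower in Arp5 KO cells, 2 higher and 1 lower in Arp8 KO cells, 0 higher and 0 lower on the array labelled Arp8 overexpression, and 2 higher and 0 lower in Arp8 KO cells against it. Pathway counts at 3-fold were 2 higher and 0 lower, 6 and 3, 5 and 2, and 2 and 3 in the same order of comparisons. At 3-fold the shares of all probes were 0.254% higher and 0.361% lower, 0.439% and 0.544%, 0.442% and 0.654%, and 0.127% and 0.202%. The cause of the changes under the settings other than the threshold was not tested. Signal over background limits *SOCS3* most, since neither of its probes was well above background on all arrays.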
